A study of Homo sapiens with 8 samples.

Results

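The genes described here are 44 factors of ribosome biogenesis, the nucleolar production of ribosomal RNA and its assembly into ribosomal subunits, together with subunits and initiation factors of RNA polymerase I (Pol I). They were listed by name for their known role, at a time when earlier results of these data were known. All 44 were found among the 57992 genes of the Molm13 table and the 58174 of the THP1 table. The genes were followed in bulk polyA RNA-seq of cells labelled Molm13 and THP1. Both names stand for monocytic human AML cell lines that carry MLL (KMT2A) fusions. In each line, control cells with wild-type genotype carrying a control hairpin (shCtrl) were compared with cells carrying a hairpin against the arginine methyltransferase PRMT9 (shPRMT9), with 2 libraries per group and 8 in all. Hairpin expression was switched on with doxycycline in every group, controls included. The labels do not say how long the cells were induced, or whether libraries 1 and 2 of a group came from separate cultures or hairpins, so p values measure only the spread between these libraries.

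In the nucleolus, Pol I transcribes a long precursor RNA with the help of the factors UBTF, RRN3 and the SL1 complex. Small nucleolar RNA-protein particles (snoRNPs) of the box C/D type methylate the precursor, those of the box H/ACA type convert uridines to pseudouridines, and large assemblies of maturation factors then fold and cut it into the small (40S) and large (60S) subunits. The genes of this pathway are known to be transcribed at high rates in growing cells and to be common targets of the transcription factor MYC.

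Read totals per library ranged from 18720950 to 27356870 counts, and replicate counts differed by more than sampling noise in each group. PRMT9 itself checked the hairpin labels. In Molm13 it was at 16.3 and 14.8 CPM in the shCtrl libraries and 2.19 and 2.63 CPM in the shPRMT9 libraries, and in THP1 at 12.4 and 12.7 CPM with shCtrl and 2.38 and 2.74 CPM with shPRMT9, so that every knockdown library lay below every control library of its line, with log2 fold changes of −2.68 and −2.29. Levels are given as CPM (counts scaled to a common library total) on TMM-normalised library sizes, or per exon length (RPKM) where genes are compared with each other. Of 8 myeloid marker genes, all had counts in each library, and their summed level went from 1282 and 1288 to 1898 and 1892 CPM in Molm13 and from 2669 and 2625 to 4077 and 3924 CPM in THP1. In those comparisons 7 of the 8 rose in Molm13 and 1 fell, MPO, and in THP1 6 rose and 2 fell, MPO and CEBPA; their part in the results below was not tested. T cell and erythroid markers summed to at most 0.586 CPM in a library, and HBA2 was listed at 0 in all 8. Of 8 HOXB genes, the summed level was at most 0.534 CPM in Molm13 and 13.5 to 15.6 CPM in THP1. The 5 B cell markers summed to 42.8 and 42.7 CPM with shCtrl and 40.7 and 39.5 CPM with shPRMT9 in Molm13, and to 4.02 and 4.65 and 14.1 and 12.6 CPM in THP1. Of these, PAX5, named after its values were seen, stood at 42.4 and 42.4 CPM with shCtrl and 39.6 and 38.6 CPM with shPRMT9 in Molm13 and at 2.50 and 3.10 CPM with shCtrl and 11.8 and 11.1 CPM with shPRMT9 in THP1, whereas MS4A1 was listed at 0 in the Molm13 libraries. The THP1 library names also carry the letters OCI, used for other leukemia lines. MLL fusion targets HOXA9 and HOXA10 were present in both lines, but MEIS1, another such target, had 4 to 9 counts per library in THP1. The identity of the line labelled THP1 and its fusion were not tested, and the label is kept here.

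The 44 genes covered a wide range of levels. Scaled for exon length, the median in shCtrl cells was 32.8 RPKM in Molm13 and 23.0 RPKM in THP1. Highest in Molm13 was NCL (nucleolin, an RNA-binding protein and one of the most abundant of the nucleolus) with 336 ± 5.68 RPKM (SD, n = 2), followed by the RNA helicase DDX21 with 304 ± 4.59. The ranges of these 2 genes over their libraries did not overlap. After them came the methyltransferase FBL at 145.5 ± 1.52, NPM1 at 142.5 ± 1.59 and NOP10 at 130.1 ± 3.74 RPKM. PPAN, a 60S factor, was the lowest with 5.28 ± 0.433 RPKM, below the 40S factor UTP15 at 7.82 ± 0.0608. In THP1, NPM1 at 241 ± 2.29 and NCL at 234 ± 6.13 RPKM led, ahead of NOP10 at 148 ± 5.96 and DDX21 at 96.4 ± 0.365. The lines come from separate tables, so a gap in level between them cannot be told apart from separate handling.

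**Figure D1:**
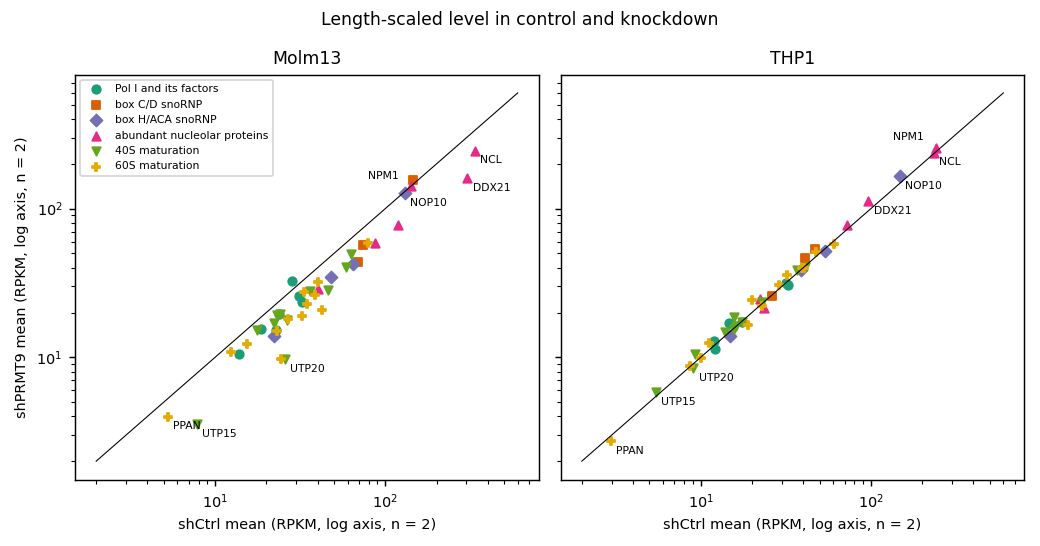
Mean level of each of the 44 genes with shCtrl (x axis) and shPRMT9 (y axis), in RPKM on log axes, n = 2 libraries per group, marker shape and colour giving the role, with the line of equal levels. In Molm13 most points lie below the line, UTP20 and UTP15 among the farthest, whereas NOP10, NPM1 and FBL lie on or just above or below it; in THP1 the points follow the line from PPAN up to NPM1.

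In Molm13, 40 of the 44 genes fell with shPRMT9, 2 rose and 2 were not called at an adjusted p below 0.05 (quasi-likelihood test of edgeR, Benjamini-Hochberg adjusted over 16446 genes). Over all genes tested in this line, 33.5% were called lower, 33.4% higher and 66.9% either way, so a call alone was common in this line. The median log2 fold change of the 44 was −0.46, with values from −1.41 to 0.21, and the median over all genes was 0.00047. By the study's stricter rule (the same adjusted p, a change over 1.5-fold and more than 1 RPKM in some library), 13 were lower and 0 higher, beside 11.3% of all genes lower and 11.4% higher. Both knockdown libraries lay below both controls for 40 genes, above them for 2 and among them for 2; over all genes tested, 40.8% lay below and 41.2% above. Each shPRMT9 library alone gave a median of −0.46 against the control mean. Together the 44 genes took 1.09% and 1.10% of all counts in the control libraries and 0.78% in each knockdown library.

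THP1 cells gave another picture. Of the 44 genes, 15 rose, 1 fell and 28 were not called, and 0 passed the stricter rule in either direction by edgeR, none having changed 1.5-fold, where 2.39% of all genes passed lower and 3.83% higher. Over all 16294 genes tested, 19.0% were called higher, 18.6% lower and 37.6% either way. The median was 0.013, with a range from −0.20 to 0.26, beside −0.00063 over all genes. When libraries were scaled by total counts alone, the median of the 44 was −0.014, beside −0.028 over all genes. The number called lower was 5 when scaled by totals alone and 3 without shPRMT9 replicate 2. Of the 15 rises, those of POLR1A, NOP58, FBL, DDX21, TSR1, RRP12, MRTO4 and NIP7 passed with each library left out in turn. WDR3 lost the call without any one of the 4 libraries (adjusted p 0.069 to 0.24), NOP2 and LYAR without 3 of them (0.079 to 0.17 and 0.11 to 0.18; NOP2 kept it without shPRMT9 replicate 1 and LYAR without shPRMT9 replicate 2), and PES1 without shCtrl replicate 2 or shPRMT9 replicate 2 (0.35 and 0.40). NOP10 and NOLC1 lost it without shCtrl replicate 2 (log2 0.12 and 0.096, adjusted p = 0.12 and 0.069) and NPM1 without shPRMT9 replicate 2 (log2 0.085, adjusted p = 0.056). The calls of LYAR, NOP2, PES1 and WDR3 were also lost by DESeq2, without a filter on low counts, and with libraries scaled by totals or upper quartiles, each of which kept 11 of the 15. Knockdown libraries lay above both controls for 20 genes, below them for 7 and among them for 17, beside 33.0% above and 33.0% below over all genes. The share of counts taken by the 44 was 0.73% in both control libraries and 0.74% and 0.75% in the knockdown libraries. As both lines are bulk cultures, fewer cells of a kind and less RNA per cell cannot be told apart.

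**Figure D2:**
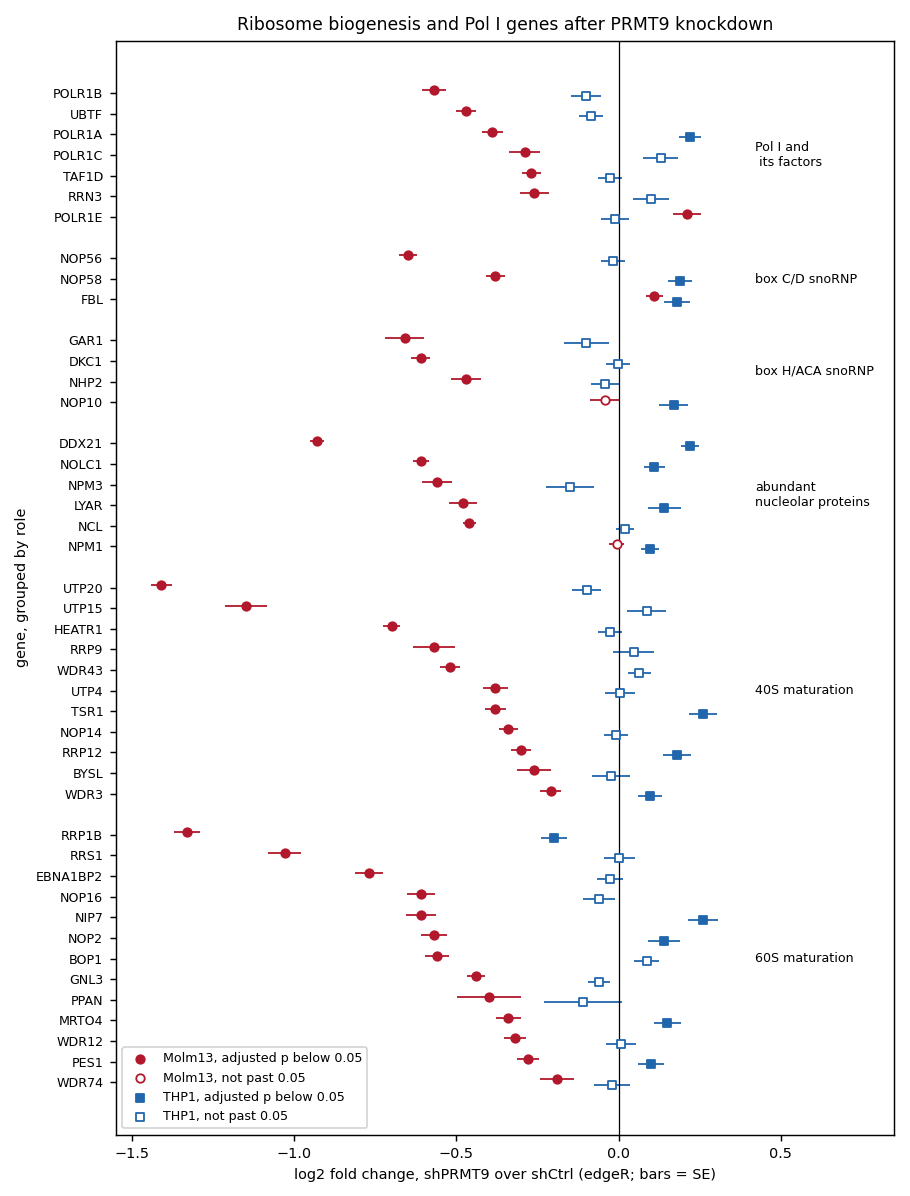
Log2 fold change of shPRMT9 over shCtrl (x axis) for the 44 genes, grouped by role (y axis), in Molm13 (red circles) and THP1 (blue squares), with bars of 1 SE; filled markers have an adjusted p below 0.05. The Molm13 values run from −1.41 (UTP20) to 0.21 (POLR1E), and the THP1 values stay between −0.20 and 0.26.

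A test of the difference between the lines, fitted over all 8 libraries and 19288 genes, gave a larger value in THP1 for 40 of the 44 genes, a smaller one for 1 (POLR1E) and no call for 3 (FBL, WDR74 and PPAN). Over all genes, 22.8% were called higher, 19.4% lower and 42.2% either way in this test. The median difference in log2 fold change, THP1 minus Molm13, was 0.50, and the median over all genes in that fit was 0.029. The calls of 3 genes depended on single libraries and on the processing. NPM1 lost its call without any of 6 of the 8 libraries (0.065 to 0.083, adjusted p 0.11 to 0.21), keeping it without Molm13 shCtrl replicate 1 or THP1 shPRMT9 replicate 1. BYSL lost it without 5, that is Molm13 shCtrl replicates 1 and 2, Molm13 shPRMT9 replicate 1, THP1 shCtrl replicate 1 or THP1 shPRMT9 replicate 2 (0.17 to 0.22, adjusted p 0.054 to 0.14). NOP10 lost it without 4, that is Molm13 shCtrl replicate 1, Molm13 shPRMT9 replicate 2, THP1 shCtrl replicate 2 or THP1 shPRMT9 replicate 2 (0.15 to 0.17, adjusted p 0.074 to 0.090). The 5 smallest adjusted p belonged to DDX21, UTP20, RRP1B, NOLC1 and HEATR1. For 12 genes the call was lower in Molm13 and higher in THP1, a combination met by 5.52% of the 13476 genes tested in both lines. These were POLR1A, NOP58, NOLC1, DDX21, LYAR, WDR3, TSR1, RRP12, PES1, NOP2, MRTO4 and NIP7. As given above, the THP1 calls of LYAR, WDR3, NOP2, PES1 and NOLC1 did not hold with each library left out. The reverse combination was met by 0 of the 44, beside 5.80% of all genes.

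**Figure D3:**
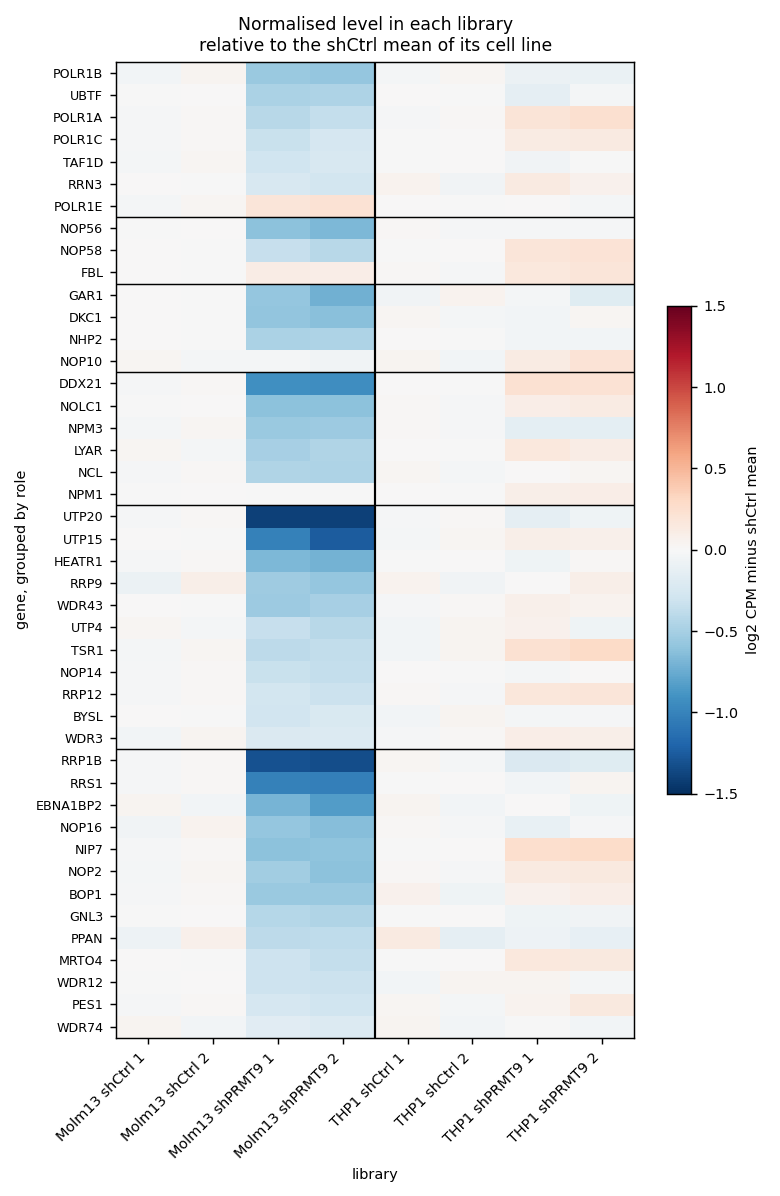
Level of each gene (rows, grouped by role) in each of the 8 libraries (columns), as log2(CPM + 0.5) minus the mean of the shCtrl libraries of the same line. The 2 Molm13 shPRMT9 columns are blue (lower) in nearly every row, down to UTP20 and RRP1B, with POLR1E and FBL pale red, and the THP1 shPRMT9 columns are pale in both directions.

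The promoters of the genes were read from RefSeq windows on GRCh38.p14, each reaching 250 bases before to 50 bases after a start site. Of the 44 genes, 37 had a window, and POLR1E, NOP58, NOLC1, RRP12, BOP1, RRP1B and RRS1 had none under their symbol. The letters CACGTG, the core of the E-box to which MYC and related factors bind, read the same on both strands, so 1 search covers both. They occurred in a window of 16 of the 37 genes (43.2%), beside 10.9% of 15843 protein-coding genes and 8.77% of 27305 genes of any kind with a window. Counted per window, the shares were 35.4% of 48 for the 44 genes and 7.26% of all 35116. The share was 39% for 41 other 40S maturation factors, 29.5% for 44 other 60S maturation factors, 42.9% for 7 Pol III genes, 9.09% for 11 exosome genes, 0% for 4 Pol II genes and 6.35% for 63 cytosolic ribosomal protein genes. The 16 genes were FBL, GAR1, NOP10, DDX21, LYAR, WDR43, UTP4, RRP9, UTP20, NOP14, BYSL, PES1, NOP2, MRTO4, GNL3 and EBNA1BP2. The log2 fold changes of genes with and without the letters covered overlapping ranges. In Molm13 the median log2 fold change was −0.46 in both sets, with ranges from −1.41 to 0.11 and from −1.15 to −0.0064, and in THP1 the medians were 0.055 and −0.003. Contrasting stretches, each the 200 bases before a start site and written 5′ to 3′ along the gene's strand with CACGTG in capitals, are given for the largest fall (UTP20), the largest fall in an abundant transcript (DDX21), a large fall without the letters (UTP15) and a gene that holds them at 2 places and was not called in Molm13 (NOP10).

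UTP20 lies at chr12:101279905-101280104 on the plus strand, with CACGTG starting 10 bases before the start site. DDX21 (its downstream listed start) lies at chr10:68956447-68956646 on the plus strand, with the letters 31 bases before it. The window of its upstream listed start does not hold the letters, and the downstream one was picked because it does. UTP15 is read from chr5:73565543-73565742 on the plus strand, without them, and NOP10 from chr15:34343137-34343336 on the minus strand, with the letters 170 and 11 bases before the start.
UTP20: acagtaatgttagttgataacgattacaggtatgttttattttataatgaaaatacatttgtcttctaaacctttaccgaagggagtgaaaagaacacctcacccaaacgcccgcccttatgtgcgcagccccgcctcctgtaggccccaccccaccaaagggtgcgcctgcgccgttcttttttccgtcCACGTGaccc
DDX21: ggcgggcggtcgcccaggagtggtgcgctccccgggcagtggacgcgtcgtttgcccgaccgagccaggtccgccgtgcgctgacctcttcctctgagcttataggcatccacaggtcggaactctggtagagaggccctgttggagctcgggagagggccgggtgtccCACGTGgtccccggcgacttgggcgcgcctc
UTP15: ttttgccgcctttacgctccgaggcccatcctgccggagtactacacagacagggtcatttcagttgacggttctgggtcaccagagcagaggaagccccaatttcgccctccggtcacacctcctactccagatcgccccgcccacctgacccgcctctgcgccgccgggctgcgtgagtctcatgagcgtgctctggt
NOP10: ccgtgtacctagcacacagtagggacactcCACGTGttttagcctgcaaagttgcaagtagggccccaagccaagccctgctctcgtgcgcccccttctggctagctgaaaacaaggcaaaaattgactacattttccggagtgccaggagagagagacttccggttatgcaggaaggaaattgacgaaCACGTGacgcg
A match of these letters is a description of the window and says nothing of whether a factor is bound there.

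Of the 7 genes of Pol I and its factors, 6 fell in Molm13 and 1 rose, with a median of −0.29, each by less than 1.5-fold. Among all genes in that line, 33.5% were called lower and 33.4% higher. POLR1B, the second-largest subunit of the enzyme, was at 140.0 and 148 CPM in the shCtrl libraries and 97.5 and 96.1 CPM in the shPRMT9 libraries. Both knockdown libraries lay clear below the controls, with a log2 fold change of −0.57 (SE 0.037, adjusted p = 5.8e-18), the largest fall of this group. In THP1 it was at 74.9 and 78.1 CPM with shCtrl and 71.7 and 71.1 CPM with shPRMT9, below the controls by 0.10 on the log2 scale without passing the test (adjusted p = 0.090). POLR1A, the catalytic subunit, moved in opposite directions in the lines. It went from 185 and 189 to 140.3 and 146.5 CPM in Molm13, a fall of 23.4%, and from 196.5 and 199.8 to 226 and 235 CPM in THP1, a rise of 16.2%. Neither pair of groups overlapped, and the difference between the lines was 0.61 (SE 0.048, adjusted p = 1.2e-20). POLR1E, a Pol I-specific subunit of the heterodimer that helps initiation and elongation, stood at 69.8 and 72.5 CPM in the shCtrl libraries and 81.0 and 83.0 CPM in the shPRMT9 libraries of Molm13. Here the knockdown libraries were the higher ones, by 0.21 (SE 0.043, adjusted p = 5.3e-05), against the direction of the other 6 genes. Its THP1 libraries overlapped, with 79.7 and 79.1 CPM with shCtrl and 79.9 and 77.6 CPM with shPRMT9, and the change of −0.012 did not pass (adjusted p = 0.87). UBTF, which wraps the ribosomal DNA and opens it for Pol I, changed by −0.47 in Molm13, POLR1C (shared by Pol I and Pol III) by −0.29, TAF1D (a subunit of SL1) by −0.27, and RRN3, which joins the enzyme to its promoter complex, by −0.26. In THP1 the log2 values of UBTF, POLR1C, TAF1D and RRN3 were −0.085, 0.13, −0.028 and 0.10, and none of the 4 passed the test in edgeR, the lowest adjusted p being 0.057.

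The box C/D snoRNP core genes parted from each other. NOP56, a scaffold of the particle, was at 370.0 and 372 CPM in the shCtrl libraries and 242 and 232 CPM in the shPRMT9 libraries of Molm13. The groups were far apart, with a log2 fold change of −0.65 (SE 0.027, adjusted p = 1.7e-24). In THP1 it was at 143 and 139 CPM with shCtrl and 138 and 139 CPM with shPRMT9 and the groups overlapped. FBL (fibrillarin), the enzyme that places the methyl groups, showed no such fall. Its Molm13 values were 319.8 and 315 CPM with shCtrl and 342.5 and 341 CPM with shPRMT9, both knockdown libraries being higher, by 0.11 (SE 0.026, adjusted p = 4.6e-04). The THP1 values of FBL, 104 and 101 CPM with shCtrl and 115 and 117 CPM with shPRMT9, were also higher with knockdown in both libraries (log2 0.18, SE 0.040, adjusted p = 8.2e-04), and the difference between the lines did not pass (0.083, SE 0.046, adjusted p = 0.15). NOP58, the partner of NOP56 in the particle, went from 246.5 and 244 to 193.5 and 184 CPM in Molm13 (log2 −0.38, SE 0.030, adjusted p = 5.1e-15). The same gene went from 134 and 136 to 153 and 156 CPM in THP1 (log2 0.19, SE 0.037, adjusted p = 1.2e-04), so each line kept its groups apart in its own direction.

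Among the 4 box H/ACA genes, whose products also sit in telomerase, 3 fell in Molm13 and NOP10 was not called, where 33.5% of all genes were called lower. GAR1 was at 45.6 and 44.8 CPM in the shCtrl libraries and 30.1 and 27.1 CPM in the shPRMT9 libraries of Molm13. Knockdown libraries lay below the controls by 36.9% on the fitted fold change, with a log2 value of −0.66 (SE 0.061, adjusted p = 4.3e-13). In THP1, GAR1 was at 29.1 and 31.5 CPM with shCtrl and 29.8 and 26.7 CPM with shPRMT9, overlapping groups that did not pass the test (adjusted p = 0.26). NOP10, the smallest protein of the particle, had Molm13 values of 73.5 and 70.6 CPM with shCtrl and 70.7 and 69.3 CPM with shPRMT9. Those groups overlapped, and the change was −0.043 (SE 0.044, adjusted p = 0.41). In THP1 it was at 84.4 and 79.7 CPM with shCtrl and 89.6 and 94.3 CPM with shPRMT9, with both knockdown libraries above the controls by 0.17 (SE 0.045, adjusted p = 0.0043). DKC1, the pseudouridine synthase itself, changed by −0.61 in Molm13 and −0.0026 in THP1, and NHP2, another core protein, by −0.47 and −0.041, the THP1 values of both failing the test.

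Of the 6 abundant nucleolar proteins, 5 fell in Molm13 and NPM1 was not called, whereas in THP1 4 rose and 2 were not called. Over all genes, 33.5% were called lower in Molm13 and 19.0% higher in THP1. DDX21, a helicase that binds ribosomal DNA, pre-ribosomal RNA and snoRNAs, had Molm13 values of 1510 and 1543 CPM with shCtrl and 807 and 801 CPM with shPRMT9. The groups were far apart, a fall of 47.3% (log2 −0.93, SE 0.022, adjusted p = 1.5e-33). In THP1 it stood at 485 and 483 CPM with shCtrl and 565 and 564 CPM with shPRMT9, a rise of 16.6% (log2 0.22, SE 0.029, adjusted p = 4.8e-07). Its difference between the lines, 1.16 (SE 0.036, adjusted p = 1.7e-47), had the smallest adjusted p among the 44. NOLC1, a chaperone of snoRNPs, was at 473 and 475 CPM with shCtrl and 310.2 and 309 CPM with shPRMT9 in Molm13 and at 288 and 283 CPM with shCtrl and 307 and 310.3 CPM with shPRMT9 in THP1. All 4 groups stood apart from their partner group, and the log2 fold changes were −0.61 (SE 0.025, adjusted p = 8.4e-25) and 0.11 (SE 0.032, adjusted p = 0.0054). NPM1 (nucleophosmin), which organises the outer part of the nucleolus and is a frequent target of mutation in AML, had Molm13 values of 541 and 549.6 CPM with shCtrl and 542 and 544 CPM with shPRMT9. These overlapped, with a change of −0.0064 (SE 0.024, adjusted p = 0.83). In THP1 it was at 929 and 916 CPM with shCtrl and 979 and 992 CPM with shPRMT9, both knockdown libraries being higher by 0.096 (SE 0.028, adjusted p = 0.0071). NPM3, a relative of NPM1, fell from 78.7 and 82.6 to 54.8 and 54.9 CPM in Molm13 (log2 −0.56, SE 0.046, adjusted p = 1.6e-14). In THP1 NPM3 was at 22.1 and 21.7 CPM with shCtrl and 19.8 and 19.7 CPM with shPRMT9, lower in both knockdown libraries without passing (log2 −0.15, SE 0.073, adjusted p = 0.11). NCL changed by −0.46 in Molm13 and 0.019 in THP1, the latter not called, and LYAR, a zinc-finger protein of the nucleolus, by −0.48 and 0.14, both called.

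All 11 genes of 40S maturation fell in Molm13, 3 of them by the stricter rule, with a median of −0.38. Of all genes tested in Molm13, 33.5% were called lower, and 11.3% were lower by the stricter rule. In THP1 3 rose and 8 were not called, where 19.0% of all genes were called higher. UTP20 (ENSG00000120800, chr12:101280109-101386616 on hg38), a very large scaffold protein of the small-subunit processome, showed the largest fall of the 44. It was at 255 and 259.7 CPM in the shCtrl libraries and 97.1 and 97.1 CPM in the shPRMT9 libraries of Molm13, or 5214 and 5080 reads against 1816 and 2065. The knockdown level was 0.377 times the control level (log2 −1.41, SE 0.032, adjusted p = 3.2e-34). In THP1, where control cells had 89.9 and 91.5 CPM, the knockdown libraries had 82.4 and 87.0. They lay below the controls, but the change did not pass (log2 −0.099, SE 0.044, adjusted p = 0.077). UTP15, HEATR1, UTP4 and WDR43 belong to the complex that binds the nascent precursor first and is linked to Pol I transcription. Their log2 fold changes in Molm13 were −1.15, −0.70, −0.38 and −0.52, and in THP1 0.086, −0.027, 0.0042 and 0.064, none of the latter called. HEATR1, singled out by its difference between the lines, was at 409 and 423 CPM with shCtrl and 259.7 and 253 CPM with shPRMT9 in Molm13 and at 142 and 143 CPM with shCtrl and 136 and 144 CPM with shPRMT9 in THP1. The Molm13 groups were far apart and the THP1 groups overlapped. At the other end, WDR3, of the UTP-B complex, was at 177 and 187 CPM with shCtrl and 157 and 157.5 CPM with shPRMT9 in Molm13, the smallest fall of this role (log2 −0.21, SE 0.032, adjusted p = 2.5e-07), and at 141 and 144 CPM with shCtrl and 153 and 152 CPM with shPRMT9 in THP1, a small rise (log2 0.098, SE 0.037, adjusted p = 0.036). TSR1, which acts on the late 40S precursor, went from 196 and 205 to 153 and 155 CPM in Molm13. It went from 84.2 and 88.6 to 101.5 and 106 CPM in THP1. Knockdown libraries were thus all below the controls in the former and all above them in the latter, with log2 fold changes of −0.38 (SE 0.032, adjusted p = 2.5e-14) and 0.26 (SE 0.043, adjusted p = 1.8e-05). The remaining genes of this role were RRP9, a protein of the U3 snoRNP (−0.57 in Molm13 and 0.046 in THP1), the processome component NOP14 (−0.34 and −0.0096), BYSL, a factor of the 40S precursor (−0.26 and −0.023), and RRP12, needed for export of the subunit (−0.30 and 0.18). Of their THP1 values, that of RRP12 passed.

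All 13 genes of 60S maturation also fell in Molm13, 5 by the stricter rule, with a median of −0.56. The shares of all genes in Molm13 were 33.5% called lower and 11.3% lower by the stricter rule. In THP1, 4 rose, 1 fell and 8 were not called, beside 19.0% of all genes called higher and 18.6% lower. RRP1B (ENSG00000160208, chr21:43659548-43696079 on hg38), a nucleolar protein that also targets protein phosphatase 1 there, was at 138.5 and 143 CPM in the shCtrl libraries and 56.5 and 55.6 CPM in the shPRMT9 libraries of Molm13. The knockdown libraries held 0.398 times the control level (log2 −1.33, SE 0.040, adjusted p = 1.2e-29). In THP1 its values were 111 and 107 CPM with shCtrl and 93.6 and 95.7 CPM with shPRMT9, and both knockdown libraries again lay lower (log2 −0.20, SE 0.041, adjusted p = 2.5e-04), the one gene of the 44 called lower in that line. The fall was larger in Molm13, with a difference of 1.14 (SE 0.059, adjusted p = 1.1e-31). NIP7, a factor of late nucleolar steps, showed the largest rise of this role in THP1, from 65.3 and 66.2 to 78.3 and 79.6 CPM (log2 0.26, SE 0.046, adjusted p = 3.0e-05). In Molm13 the same gene was at 74.2 and 76.3 CPM with shCtrl and 49.1 and 49.2 CPM with shPRMT9, with the groups apart in the other direction (log2 −0.61, SE 0.047, adjusted p = 1.5e-15). WDR74, a WD-repeat protein of the 60S precursor, changed least in Molm13. It was at 54.3 and 51.1 CPM with shCtrl and 46.7 and 45.7 CPM with shPRMT9 there (log2 −0.19, SE 0.052, adjusted p = 0.0013) and at 43.7 and 41.5 CPM with shCtrl and 42.5 and 41.4 CPM with shPRMT9 in THP1, where the groups overlapped. The PeBoW complex, made of PES1, BOP1 and WDR12, had log2 fold changes of −0.28, −0.56 and −0.32 in Molm13 and of 0.10, 0.086 and 0.0065 in THP1, of which that of PES1 passed. RRS1, which helps load the 5S particle, fell by 1.03 on the log2 scale in Molm13 and EBNA1BP2, another early 60S factor, by 0.77, beside 0.0021 and −0.026 in THP1, neither called. The RNA methyltransferase NOP2 had −0.57 and 0.14 in the same order, MRTO4, which holds the place of the stalk protein, −0.34 and 0.15, and all of these were called. NOP16, an assembly factor, had −0.61 and −0.060, GNL3 (nucleostemin, a GTP-binding protein) −0.44 and −0.060, and PPAN −0.40 and −0.11; their THP1 values did not pass.

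Genes of the same pathway outside the 44 were then counted. The 47 further 40S maturation factors showed 36 lower, 1 higher and 10 not called in Molm13 (median −0.34). In THP1 46 of them were tested, with 3 lower, 15 higher and a median of 0.068. The largest fall in Molm13 was that of PNO1, which binds the late 40S precursor, at 39.7 and 42.3 CPM with shCtrl and 14.8 and 15.4 CPM with shPRMT9 (log2 −1.44, SE 0.071, adjusted p = 4.3e-22), and the largest rise that of its partner, the endonuclease NOB1 (log2 0.48, SE 0.044, adjusted p = 3.1e-13). In THP1 the extremes were DDX52 (0.41) and TSR2 (−0.23). Of 49 further 60S factors, 36 were lower and 6 higher in Molm13 (median −0.34), led by URB2 (−1.18) and, upwards, by RSL1D1 (0.30), and in THP1 4 were lower and 17 higher (median 0.065), between NLE1 (−0.18) and URB1 (0.34). The RNA exosome, which trims ribosomal precursors, had 10 of 13 genes lower and 1 higher in Molm13 (median −0.38), and 2 lower and 4 higher in THP1 (median 0.054). Its extremes were EXOSC9 (−0.76) and DIS3 (0.10) in Molm13, and EXOSC3 (−0.21) and DIS3 (0.39) in THP1. The share called lower in Molm13 was thus above the 33.5% of all genes in each of these 3 groups. In THP1, 19.0% of all genes were called higher and 18.6% lower.

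The subunits of the other RNA polymerases were counted in the same way in Molm13. Of 7 subunits of Pol II alone, 3 were lower and 2 higher (median −0.094), from POLR2B (−0.42) to POLR2G (0.18). Of 11 Pol III genes, 8 were lower and 2 higher (median −0.50). Here the alternative subunits POLR3G and POLR3GL lay at opposite ends. POLR3G was at 42.9 and 42.3 CPM with shCtrl and 17.5 and 18.4 CPM with shPRMT9 and POLR3GL at 25.0 and 23.3 CPM with shCtrl and 36.6 and 36.7 CPM with shPRMT9, with log2 fold changes of −1.25 (SE 0.067, adjusted p = 8.6e-21) and 0.60 (SE 0.065, adjusted p = 4.4e-11). All 4 tested subunits shared by the 3 enzymes fell (median −0.73), from −0.22 for POLR2H to −1.13 for POLR2K, and POLR2F had too few counts to be tested. Of 8 further Pol I genes, 4 fell, TWISTNB furthest with −0.45, and 1 rose, POLR1D, which Pol I shares with Pol III (log2 0.54, SE 0.028, adjusted p = 2.7e-21). In THP1, 0 of these 8 Pol I genes were called by edgeR, DESeq2 or limma's voom, and 0 had an unadjusted p below 0.05 by any of them. In the same line 2 of 7 Pol II genes were higher, POLR2D (0.23) and POLR2A (0.11), 1 of 11 Pol III genes was lower, POLR3G (−0.26), and 1 higher, POLR3B (0.19). Of the 4 shared subunits 3 were lower in THP1, from −0.11 (POLR2E) to −0.53 (POLR2K). Over all genes, 33.5% were called lower and 33.4% higher in Molm13, and 18.6% and 19.0% in THP1.

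The cytosolic ribosomal proteins, the proteins that the 44 factors assemble with ribosomal RNA, moved in the other direction in Molm13. Of 79 genes, 68 were higher, 8 lower and 3 not called, with a median of 0.29, beside 33.4% of all genes called higher and 33.5% lower. Their summed share of counts went from 4.84% and 4.81% to 6.08% and 6.02%. In THP1, 68 were lower and 1 higher, with a median of −0.20, beside 18.6% of all genes called lower and 19.0% higher. The summed share of counts went from 3.92% and 3.88% to 3.30% and 3.28% there. The signs of both medians held under each normalization, filter, test and left-out library tried. For 60 of the 79 the call was higher in Molm13 and lower in THP1, the combination met by 5.80% of all genes and by 0 of the 44. The largest rise in Molm13 was that of RPL28 (log2 0.51, SE 0.024, adjusted p = 8.9e-23) and the largest fall that of RPL21 (log2 −0.80, SE 0.081, adjusted p = 8.5e-12), which stood at 10.5 RPKM and whose reads many pseudogenes can share. In THP1 the 1 gene called higher was RPL12 (log2 0.087, SE 0.029, adjusted p = 0.021). Between the lines, the difference was called lower in THP1 for 71 of the 79 and higher for 6, the reverse of the 40 higher and 1 lower among the 44. Over all genes, 19.4% were called lower and 22.8% higher in that test. Pseudogene counts were not added for the 79. RPS7, named after its values were seen, had a shCtrl mean of 66.6 CPM in Molm13 and 441 CPM in THP1. For RPS10, named likewise, the means were 6.87 and 66.7 CPM. Across the 79, Spearman's rho of the Molm13 log2 fold change was 0.58 with the control level and 0.32 with GC content. Their part in these values was not tested.

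**Figure D4:**
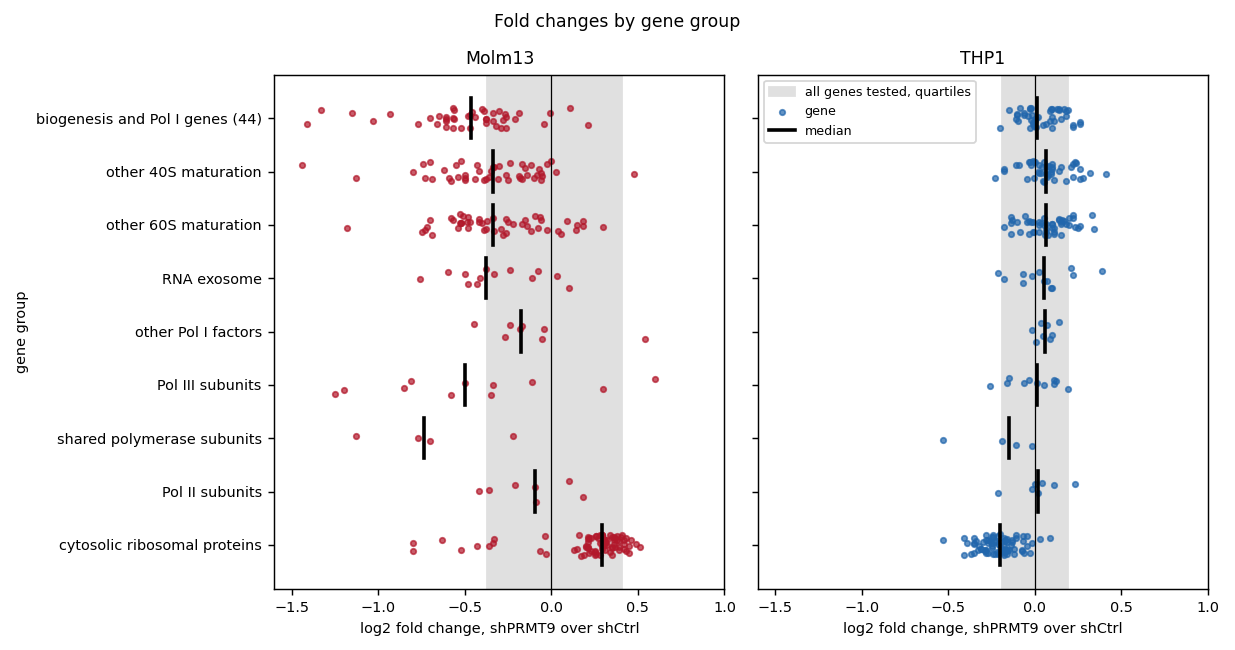
Log2 fold change of shPRMT9 over shCtrl (x axis) for single genes (points) of each group (y axis) in Molm13 and THP1, with the group median (black line) and the quartiles of all genes tested (grey band). In Molm13 the medians of the 44 genes (−0.46) and of the 40S, 60S and exosome groups lie left of 0 and that of the ribosomal proteins (0.29) right of it, and in THP1 the medians are 0.013 and −0.20.

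**Figure D5:**
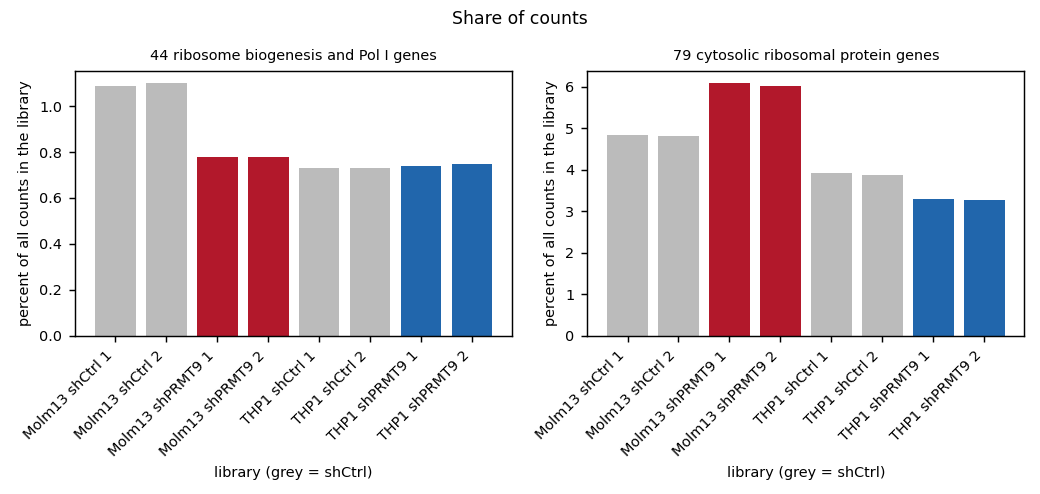
Percent of all counts (y axis, from 0) taken by the 44 genes (left) and by 79 cytosolic ribosomal protein genes (right) in each of the 8 libraries (x axis, shCtrl in grey). In Molm13 the 44 genes go from 1.09% and 1.10% to 0.78% and the ribosomal proteins from 4.84% and 4.81% to 6.08% and 6.02%, and in THP1 from 0.73% to 0.74% and 0.75% and from 3.92% and 3.88% to 3.30% and 3.28%.

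MYC, the transcription factor known to drive many of these genes, was lower in both lines. It was at 479 and 488 CPM in the shCtrl libraries and 366 and 376 CPM in the shPRMT9 libraries of Molm13 and at 252 and 243 CPM with shCtrl and 192 and 198 CPM with shPRMT9 in THP1. Groups did not overlap in either line, and the log2 fold changes were −0.38 (SE 0.025, adjusted p = 1.3e-17) and −0.34 (SE 0.034, adjusted p = 3.7e-09). The difference between the lines, 0.052 (SE 0.042, adjusted p = 0.36), did not pass the test. Any part of MYC in the values of the 44 genes was not tested.

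Several of the 44 genes share their place in the genome or their sequence with other genes. Of the 44, 9 (20.5%) hold at least 1 small nucleolar or Cajal body RNA gene on their own strand, beside 1.45% of 16415 tested genes. These came to 35 listed entries, in which some names repeat. TAF1D holds 8 entries, NOP56 5, and GNL3 and NOP58, both with repeated names, 6 and 4. PolyA libraries counted per gene do not measure these small RNAs. For 8 genes the table has rows of named pseudogenes. NPM1 has 45 such rows, with 45.9% as many counts in Molm13 as NPM1 itself, NHP2 has 24.9% and RRN3 13.5%. In THP1 the same rows held 0.434%, 0.0850% and 28.6% as many, and this gap between the lines cannot be told apart from the separate handling of their tables. With the pseudogene counts added, NPM1 stood at 792 and 786 CPM with shCtrl and 787 and 808 CPM with shPRMT9 in Molm13, still overlapping, its level per exon length in control cells was 206.1 ± 1.18 RPKM, above that of FBL, and its difference between the lines no longer passed (0.059, adjusted p = 0.20). Another gene overlaps the coordinates of 29 of the 44, the small RNA genes included, and this share was not counted over all genes. For NOP56, NOP58, DKC1 and NCL only small RNA genes overlap. Large neighbours in Molm13 were XPO5 (mean 3779 counts) with POLR1C (1241), EMC1 (1941) with MRTO4 (2047) and CHTF8 (2257) with UTP4 (2223). These lie on the opposite strand. P2RY11 (331) overlaps PPAN (239) on the same strand. Further well-counted neighbours on the opposite strand were PDXDC1 (1597) with RRN3 (1414) and HIGD2A (1488) with NOP16 (1643). The same holds for LGALS8 (2725) with HEATR1 (6717), PBRM1 (2462) with GNL3 (4582), CEP295 (935.5) with TAF1D (4781) and ANKRA2 (380) with UTP15 (716.8), among others. Some neighbours hold few counts, such as SPAG17 (2.00) with WDR3. The strand setting of the counting is not given in the sources used here, so values of genes with a well-counted neighbour are less certain. Across the 44, Spearman's rho of the Molm13 log2 fold change with exon length was −0.11 and with GC content 0.060, as a description over genes that share the same libraries.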

How the data were processed

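Counts of the 8 libraries were analysed as deposited: whole-number reads per gene, without normalization, in a table per line. The authors' counts came from polyA libraries (Kapa mRNA HyperPrep), and the submitters' processing notes name TopHat2 2.0.8, HTSeq 0.11.2, edgeR 3.30.3 and hg38; the strand setting is not given in the sources used here. The THP1 identifiers were matched to symbols and exon lengths of the Molm13 table. Of its 57992 genes, 57388 are in GENCODE release 29, 96.2% of them with equal coordinates.

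Each line was fitted alone in R 4.3.3 with edgeR 4.0.16 (TMM, filterByExpr, quasi-likelihood test, Benjamini-Hochberg over all genes tested), without a replicate block, and the interaction in a fit over all 8 libraries. The SE was taken as the size of the log2 fold change over the root of F. CPM and RPKM were computed here. Alternatives were RLE, library size or upper quartile scaling, other filters, DESeq2 1.42.0, limma 3.58.1 (voom), the block, a GC and length correction, a joint fit, thinning and each library left out.

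The 44 genes and all lists (other maturation factors, exosome, polymerase subunits, ribosomal proteins, myeloid, MLL target, HOXB, B cell, T cell and erythroid markers) were chosen with earlier results of these data known. All 44 are named. Values in every library are given, in each role and line, for the largest and smallest log2 fold change, for the 5 smallest adjusted p of the difference, and for PRMT9 and MYC. Genes of other lists are named at the extremes of their list among calls, except 1 that is not reported here, and others were named after their values were seen.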

Additional observations from a re-analysis of the deposited data

Results flagged for a closer look

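In 41 of the 44 genes the response to shPRMT9 was not the same in Molm13 and THP1 by the interaction term of edgeR's fit over all 8 libraries, at an adjusted p below 0.05 over 19288 genes, beside 42.2% of all genes. Values are log2 fold changes in THP1 minus those in Molm13, and the line cannot be told apart from the separate handling of its libraries. The calls of NPM1, NOP10 and BYSL did not hold throughout. NPM1 lost its call in edgeR with library size alone (0.070, adjusted p = 0.093) and upper quartile scaling (0.055, 0.22). It was also lost with the GC and length correction (0.038, 0.46), thinning (0.068, 0.14) and pseudogene counts added. BYSL lost its call in edgeR with thinning (0.20, adjusted p = 0.058). By DESeq2, NOP10 (0.19, adjusted p = 0.060) and BYSL (0.22, 0.091) were not called. Among Pol I and its factors the differences were 0.61 for POLR1A, 0.40 for UBTF, 0.48 for POLR1B, 0.44 for POLR1C, 0.38 for RRN3, 0.25 for TAF1D and −0.20 for POLR1E. For the box C/D particle the differences were 0.64 for NOP56 and 0.58 for NOP58. For the box H/ACA particle the differences were 0.62 for DKC1, 0.44 for NHP2, 0.57 for GAR1 and 0.22 for NOP10. Abundant nucleolar proteins followed, and here the differences were 1.16 for DDX21, 0.74 for NOLC1, 0.49 for NCL, 0.63 for LYAR, 0.42 for NPM3 and 0.12 for NPM1. Among 40S maturation factors the differences were 1.32 for UTP20, 0.68 for HEATR1, 1.25 for UTP15, 0.60 for WDR43, 0.65 for TSR1, 0.50 for RRP12, 0.35 for NOP14, 0.63 for RRP9, 0.40 for UTP4, 0.32 for WDR3 and 0.25 for BYSL. The 60S maturation factors came last, and here the differences were 1.14 for RRP1B, 1.05 for RRS1, 0.89 for NIP7, 0.76 for EBNA1BP2, 0.66 for BOP1, 0.73 for NOP2, 0.50 for MRTO4, 0.39 for GNL3, 0.57 for NOP16, 0.39 for PES1 and 0.34 for WDR12.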

How the results depend on the processing

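All 40 genes called lower in Molm13 kept that call under each of the 16 alternatives tried, and the median there was −0.46 with library size alone and with a filter at 1 CPM in 2 libraries, −0.41 with upper quartile scaling, −0.48 without a filter, −0.47 in a fit of both lines and −0.47 to −0.45 with 1 library left out. The THP1 median was −0.014 with library size alone, −0.0086 with upper quartile scaling, 0.00052 without a filter, 0.044 with a GC and length correction, with or without the replicate block, and 0.019 to 0.039 with 1 library left out. Over all genes, the THP1 median was −0.028 with library size alone, −0.022 with upper quartile scaling and 0.016 without a filter. With the GC and length correction it was 0.038, or 0.037 in the block. In Molm13 the median over all genes was 0.048 with upper quartile scaling. Genes called lower in THP1 numbered 5 with library size alone, 4 with upper quartile scaling, 2 in the fit of both lines and 1 to 3 with 1 library left out; those called higher numbered 9 to 14, and of the 15 main calls 9 to 13 were kept. LYAR, NOP2, PES1 and WDR3 lost their THP1 call with library size alone, upper quartile scaling, no filter and DESeq2, each of which kept 11 of the 15 (adjusted p 0.054 to 0.15), and RLE, the 1 CPM filter, voom, the fit of both lines and the GC and length correction kept 15. The median difference between the lines was 0.47 with RLE, with a filter at 1 CPM and with DESeq2, 0.45 with library size alone, 0.44 with upper quartile scaling, 0.49 without a filter, 0.53 with the GC and length correction with or without the block, 0.46 with all libraries thinned to the shallowest total or with pseudogene counts added (an alternative chosen after the data were seen), and 0.44 to 0.49 with 1 library left out. Of the 40 higher differences, 37 to 40 were kept. Libraries with the same replicate number shared little deviation, with a correlation of −0.087 in Molm13 and −0.015 in THP1. The labels do not say whether they were handled as pairs. With the replicate block, 40 genes were called lower in Molm13, and in THP1 13 of the 15 rises were kept. Signs of single genes also turned, all of them for values not called in the main fit, and the cause was not tested. With library size alone these were in THP1 NCL −0.0073, UTP4 −0.023, WDR12 −0.021, RRS1 −0.025. With upper quartile scaling these were in Molm13 NOP10 0.0053, NPM1 0.042 and in THP1 NCL −0.0021, UTP4 −0.017, WDR12 −0.015, RRS1 −0.020 and between the lines MYC −0.0080. Without a filter these were in THP1 UTP4 −0.0085, WDR12 −0.0061, RRS1 −0.010. With the 1 CPM filter these were in Molm13 NPM1 0.0013 and in THP1 DKC1 0.0012. With the GC and length correction in the block these were in Molm13 NPM1 0.061 and in THP1 POLR1E 0.010, TAF1D 0.033, DKC1 0.016, NHP2 0.0080, NOP14 0.0087, BYSL 0.016, WDR74 0.0039. With that correction alone these were in Molm13 NPM1 0.061 and in THP1 POLR1E 0.011, TAF1D 0.033, DKC1 0.016, NHP2 0.0080, NOP14 0.0087, BYSL 0.016, WDR74 0.0047. In the fit of both lines these were in THP1 DKC1 0.0032. With pseudogene counts added these were in Molm13 NPM1 0.015. Ranges with 1 library left out were, in Molm13, NPM1 −0.025 to 0.0090, in THP1 DKC1 −0.039 to 0.033, UTP4 −0.063 to 0.067, WDR12 −0.034 to 0.044, WDR74 −0.060 to 0.012, RRS1 −0.043 to 0.046, PPAN −0.25 to 0.031, EBNA1BP2 −0.075 to 0.017, NCL −0.0093 to 0.043, RRP9 −0.015 to 0.10, BYSL −0.063 to 0.015, HEATR1 −0.069 to 0.014, NOP14 −0.025 to 0.0050, POLR1E −0.032 to 0.0077, and for the difference MYC −0.0077 to 0.045. With 2 libraries per group, an exact permutation test could not go below p = 0.333, so calls rest on the spread shared across genes, which was small (biological coefficient of variation 0.0201 and 0.0247).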
